A study of Homo sapiens with 12 samples.

Results

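The genes described here are 57 human genes of autophagy and the lysosome, taken by name: the autophagy regulator TP53INP2, the cargo receptors, the core autophagy machinery, the transcription factors of the MiT/TFE family and a set of lysosomal proteins. The deposited tables list 8842 genes, and 41 of the 57 are among them. The other 16 (OPTN, MAP1LC3A, ULK2, BECN1, PIK3C3, AMBRA1, ATG9A, WIPI1, ATG4A, ATG4B, ATG4D, TFEB, CTSL, CTSZ, GLA and GAA) were not in the tables used here, and nothing is said of them. RNA was measured by sequencing in 2 liver cancer cell lines, HepG2 and LM3, which were transfected with a small interfering RNA against the long noncoding RNA FASRL (siFASRL) or with a control siRNA (siNC). Each of the 4 groups, HepG2 siFASRL, HepG2 siNC, LM3 siFASRL and LM3 siNC, had 3 libraries, 12 in all, and RNA was harvested 48 h after transfection. The question put to these genes was whether they fell together with TP53INP2 after knockdown.

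Autophagy wraps cytoplasm, organelles or protein aggregates in a double membrane, the autophagosome, which then fuses with the lysosome. The ULK kinase complex starts the process, a class III phosphatidylinositol 3-kinase marks the growing membrane, and a conjugation system attaches the small ATG8 proteins (LC3 and GABARAP families) to lipid, where cargo receptors such as p62 (SQSTM1) bind them. The hydrolases of the lysosome break down what arrives, and the MiT/TFE factors (TFEB, TFE3 and MITF) switch on many lysosomal and autophagy genes. In the liver, autophagy supplies nutrients during fasting and clears lipid droplets and damaged mitochondria.

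The values are the authors' normalized expression values, and the depth of the libraries is unknown. They sum to between 316534 and 355094 in a library. In each line every siFASRL library summed higher than every siNC library. The sums were 347211 to 355094 against 333193 to 338379 in HepG2, and 346884 to 348573 against 316534 to 321859 in LM3. FASRL was not among the listed genes, so the extent of its knockdown was not measured here. Nothing in the labels says that the replicates were separate cultures, and p-values therefore measure the spread between these libraries, which may be technical. The list is not a neutral sample of the transcriptome. Among genes whose mean reached 5, falls of up to 0.29 on the log2 scale (−0.29 to 0) were nearly absent in HepG2, with 53 of 6367 genes (0.832%), against 1061 of 5937 (17.9%) in LM3. Most listed genes were called in each line at an adjusted p under 0.05 (limma), so counts called in a list are to be read against the share of all listed genes called in the same way. The HepG2 effects were therefore also centred on the middle of that nearly empty range (−0.145), an alternative chosen after seeing the data. Fold changes are log2 ratios of siFASRL to siNC on log2(value + 1) with the standard error (SE) over 3 libraries a group, and where values come in pairs the siNC libraries are given first.

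The lines were checked against cell type markers. Of 12 hepatocyte markers, 10 were listed. All 10 reached 2 in at least 1 HepG2 library, and their summed value was 5063, 5041 and 4668 in the siNC libraries and 2778, 2663 and 2681 in the siFASRL libraries of HepG2, with SERPINA1 the most abundant and 9 of 10 called lower. LM3 had little of most of them: 8 of 10, including ALB, APOA1 and AFP, stayed under 2 in every LM3 library, and KRT18, the most abundant there, made up most of the sum (869, 1016 and 986 with siNC; 736, 791 and 761 with siFASRL). Of 9 fibroblast and endothelial markers 6 were listed. In HepG2, COL3A1 was the most abundant with siNC (mean 31.4, against 20.1 for COL1A1) and COL1A1 with siFASRL (15.7 against 10.3). COL1A1 was the most abundant in LM3. The sum of the 6 was 70.8, 71.0 and 72.3 with siNC and 35.4, 32.4 and 33.3 with siFASRL in HepG2. In LM3 it was 15.3, 14.7 and 13.4 against 4.80, 5.94 and 5.31. All that passed the filter were called lower (4 in HepG2 and 2 in LM3). VWF stayed under 1 throughout, and of 7 immune markers only CSF1R was listed, at 1.57 or less. Most hepatocyte markers were thus lower with siFASRL in HepG2, where KRT18 had no call (0.13). In LM3 only 2 of them, HNF4A and KRT18, passed the filter, and both were called lower. The part of the hepatocyte and fibroblast markers in the results was not tested. The study verified its cell lines by short tandem repeats, so these markers are read as RNA of the lines and not as shares of cell types. Bulk libraries cannot tell a change in all cells from a change in some of them.

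TP53INP2 encodes a shuttling protein that leaves the nucleus under stress, binds ATG8 proteins and promotes autophagosome formation. The gene lies at chr20:34704344-34713436 (GRCh38.p14). In HepG2 its value was 32.6, 28.0 and 31.2 in the siNC libraries and 18.8, 15.5 and 15.1 in the siFASRL libraries. In LM3 it was 14.6, 11.5 and 10.1 with siNC and 3.84, 4.09 and 3.70 with siFASRL. Every siFASRL library lay below every siNC library of its line, and LM3 started from the lower level. The mean with siFASRL was 53.8% of that with siNC in HepG2, a log2 fold change of −0.86 (SE 0.089, adjusted p = 1.3e-05), and 32.1% in LM3, a log2 fold change of −1.41 (SE 0.112, adjusted p = 7.99e-06). A two-sided exact permutation test of 3 against 3 libraries gave p = 0.1 in either line, the smallest value such a test can reach. The LM3 effect minus the HepG2 effect was −0.55 (SE 0.158, adjusted p = 0.0117), a larger fall in LM3 that depended on scaling: after quantile normalization it was −0.17 with an adjusted p of 0.418. The study singled out TP53INP2 on these same libraries, so its fall here is not independent evidence of a direction. The paper also reported less TP53INP2 RNA by quantitative PCR and less of its protein by Western blot in both lines after knockdown. Those measurements are not part of the values used here.

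**Figure D1:**
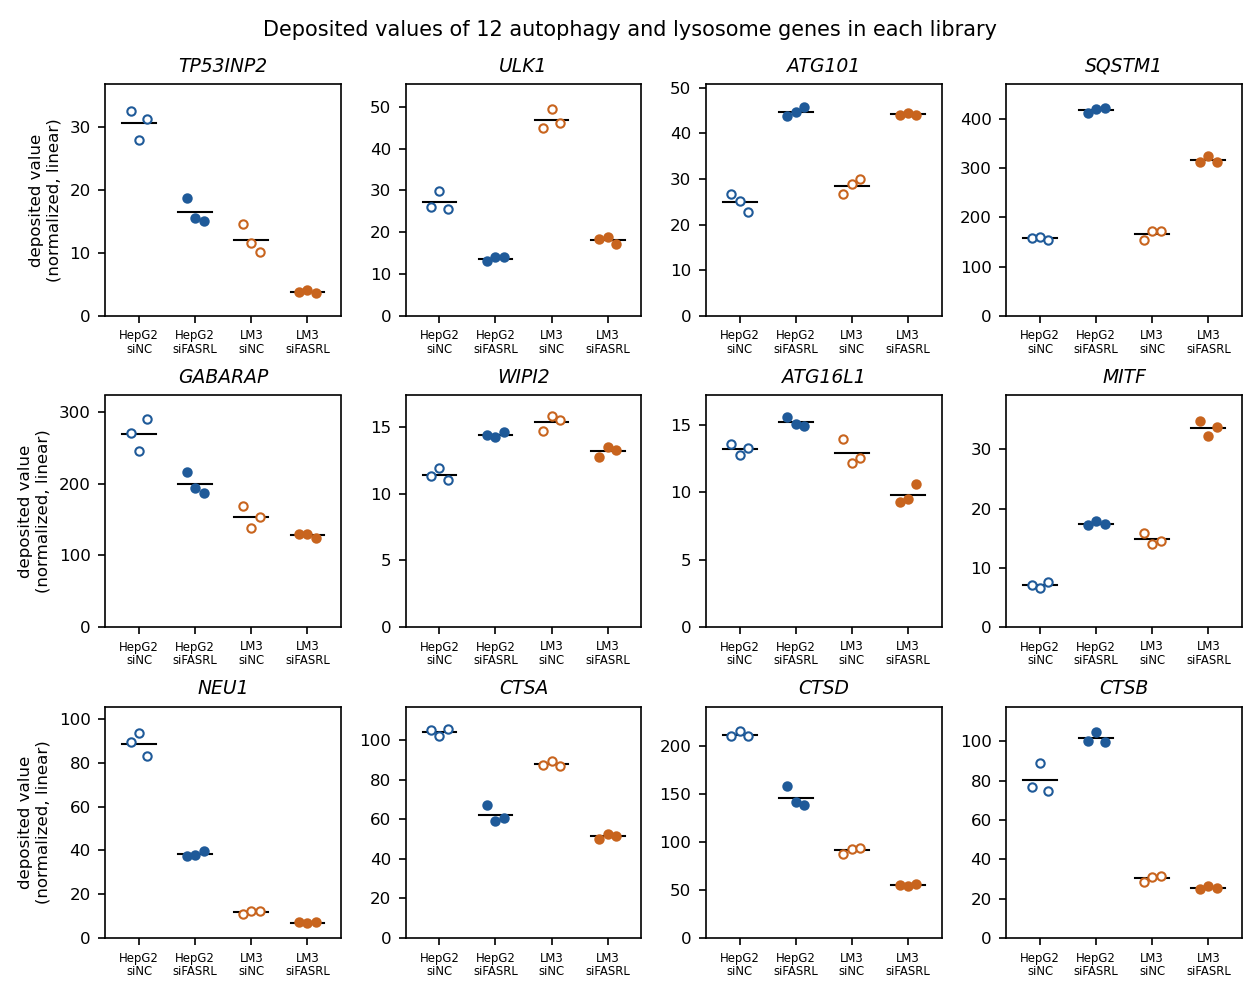
Deposited values (linear scale, axes from 0) of 12 members in each library, with open circles for siNC, filled circles for siFASRL, blue for HepG2, orange for LM3 and a black bar for the mean of 3 libraries. TP53INP2, ULK1, GABARAP, NEU1, CTSA and CTSD lay lower with siFASRL in both lines, SQSTM1, ATG101 and MITF lay higher in both, and WIPI2, ATG16L1 and CTSB rose in HepG2 and fell in LM3.

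Taken over the whole list, the members did not fall with TP53INP2 as a block. All 41 passed the filter on low values in each comparison. In HepG2, 18 of 41 were called lower (44.3% of all 8144 genes tested were) and 15 higher (44.8% of all), while 8 had no call. Their median log2 fold change was 0.03, against 0.10 over all tested genes. Past a log2 fold change of 1 in size as well, 1 member was lower (NEU1; 6.79% of all genes) and 2 were higher (SQSTM1 and MITF; 3.61% of all genes). In LM3, 20 of 41 were called lower (43.5% of all 7483 genes tested) and 9 higher (33.9% of all), with 12 without a call and a median of −0.18 against −0.06 over all tested genes. There, 2 members were lower past the fold threshold (TP53INP2 and ULK1; 6.2% of all genes) and 1 was higher (MITF; 1.42% of all). The share of lower members was 43.9% in HepG2 and 48.8% in LM3, and that of higher members 36.6% and 22%, below those of all listed genes. Centring the HepG2 effects on the nearly empty range moved the median of all genes by 0.14 and changed the HepG2 split to 18 lower and 23 higher (43.9% and 56.1%), against 43.4% and 55.2% of all genes. The smaller share of higher members in HepG2 was thus gone. In LM3 median-of-ratios scaling moved the median of all genes by 0.11 and gave 16 lower and 11 higher (39% and 26.8%), against 36.9% and 42% of all genes. Quantile normalization gave 21 lower and 11 higher there (51.2% and 26.8%), against 34.7% and 37.5% of all genes, so the distance of lower members from all genes depended on the scaling.

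**Figure D2:**
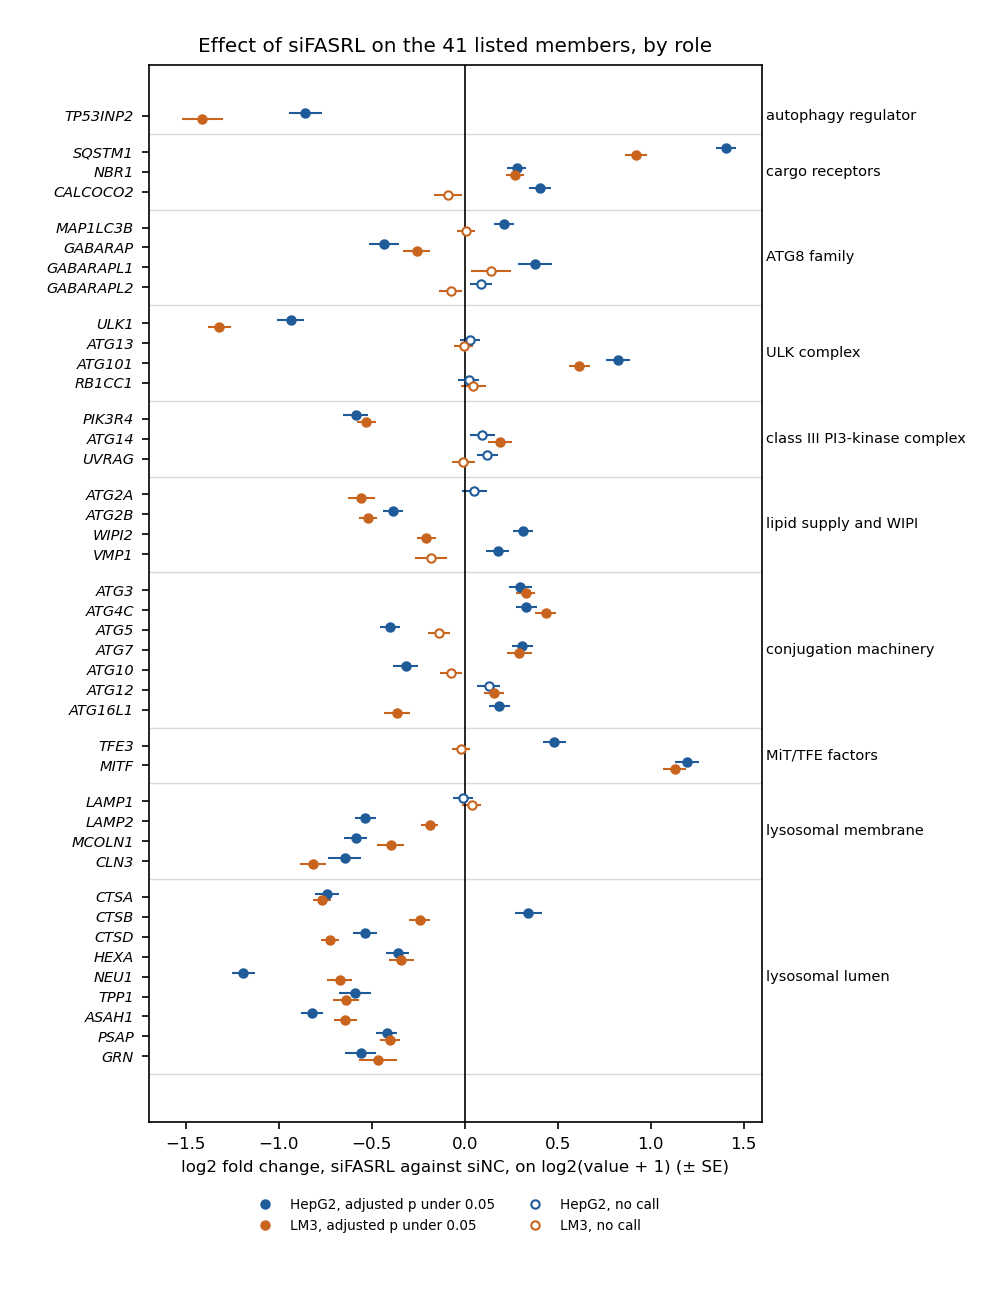
Log2 fold change of siFASRL against siNC on log2(value + 1) (horizontal axis, bars ± SE, 3 libraries a group) for the 41 listed members, ordered by role. Filled points had an adjusted p under 0.05 over all tested genes, and the lysosomal genes at the bottom lie left of 0 in both lines apart from LAMP1, which is near 0, and CTSB in HepG2.

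The counts differed between roles, although no test compared the roles. Among the 25 listed genes of autophagosome formation and the cargo receptors, 6 were lower and 12 higher in HepG2 (24% and 48%). Of all genes tested there, 44.3% were lower and 44.8% higher. In LM3, 7 of the 25 were lower and 8 higher (28% and 32%), against 43.5% and 33.9% of all. The shares of higher genes thus lay near those of all genes, and the shares of lower genes lay below them. Among the 13 listed lysosomal proteins, 11 were lower and 1 higher in HepG2 (84.6% and 7.69%). In LM3, 12 of the 13 were lower (92.3%) and 0 higher. The lysosomal median was −0.56 in HepG2 and −0.47 in LM3, and that of the autophagy genes 0.13 and −0.01. The lysosomal counts were 11 lower and 1 higher in HepG2 under quantile and median-of-ratios scaling and 11 lower and 2 higher with the gap centred. Of all genes, 40.6%, 44.3% and 43.4% were lower under these settings in turn, and 43.7%, 44.3% and 55.2% higher. In LM3 the lysosomal counts were 12 lower and 0 higher under quantile scaling and 10 lower and 1 higher under median-of-ratios scaling. Of all genes, 34.7% and 36.9% were lower there, and 37.5% and 42% higher. The autophagy genes changed to 6 lower and 19 higher in HepG2 with the gap centred, where 55.2% of all genes were higher. They changed to 5 lower and 9 higher in LM3 under median-of-ratios scaling, where 42% of all genes were higher.

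**Figure D3:**
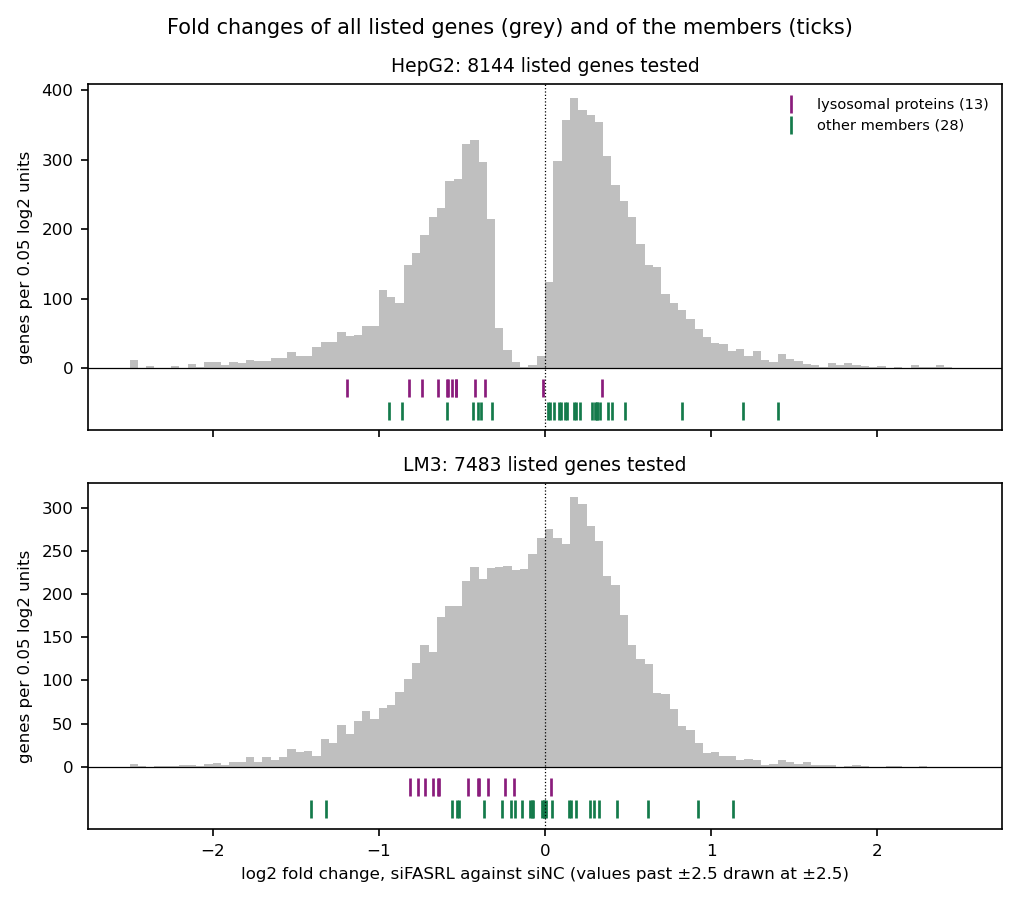
Number of listed genes per 0.05 units of log2 fold change (grey) in HepG2 and LM3, with a tick for each lysosomal protein (purple) and each other member (green). The HepG2 panel shows the range below 0 that the list nearly lacks, and in both panels the purple ticks gather left of 0 while the green ticks lie on both sides.

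None of the 3 listed cargo receptors was called lower in either line. SQSTM1 (chr5:179806393-179838078) encodes p62, which links ubiquitinated cargo to LC3 and is itself degraded by autophagy. Its value was 158, 159 and 154 with siNC and 411, 420 and 421 with siFASRL in HepG2. For LM3 the values were 154, 173 and 172 and 311, 324 and 312. Both control groups lay at nearly the same level, and all siFASRL libraries stood far above them, highest in HepG2. The rise was 2.66-fold in HepG2, 1.40 (SE 0.052, adjusted p = 3.93e-08) on the log2 scale, and 1.90-fold in LM3, 0.92 (SE 0.060, adjusted p = 2.97e-06), and the LM3 effect minus the HepG2 effect was −0.48 (SE 0.073, adjusted p = 0.00014). Exons of MRNIP on the opposite strand cover 20.7% of the bases annotated as SQSTM1 exons. Whether the libraries kept the strand was not stated, so reads from the 2 strands cannot be told apart. MRNIP itself was lower in HepG2 (−0.79) and LM3 (−0.22).

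NBR1, a second ubiquitin-binding receptor, read 42.6, 40.8 and 42.6 with siNC and 51.5, 51.3 and 50.7 with siFASRL in HepG2. In LM3 it read 27.6, 26.4 and 27.1 and 32.4, 32.6 and 33.4. The groups were tight and apart in both lines, with log2 fold changes of 0.28 (SE 0.052, adjusted p = 0.000623) and 0.27 (SE 0.048, adjusted p = 0.000856). CALCOCO2 (NDP52), a receptor for bacteria and mitochondria, gave 18.5, 17.2 and 18.9 and 25.2, 23.7 and 24.4 in HepG2, but 26.3, 23.8 and 24.2 and 21.1, 23.8 and 24.98 in LM3. It was higher with siFASRL in every HepG2 library, while the LM3 groups overlapped. The fold changes were 0.41 (SE 0.059, adjusted p = 0.000119) and −0.09 (SE 0.073, adjusted p = 0.282), and the difference between the lines was −0.50 (SE 0.093, adjusted p = 0.000752).

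Among the ATG8 proteins, which sit on the autophagosome membrane and bind both TP53INP2 and the receptors, the 4 listed genes went different ways. GABARAP read 271, 246 and 291 with siNC and 216, 194 and 187 with siFASRL in HepG2. In LM3 the values were 168, 138 and 154 and 130, 130 and 124. It lay lower with siFASRL in both lines without overlap, −0.43 (SE 0.080, adjusted p = 0.000577) in HepG2 and −0.26 (SE 0.074, adjusted p = 0.011) in LM3. The LM3 call was lost under median-of-ratios scaling (−0.14, adjusted p = 0.113). An annotated coding gene on the same strand covers 30.5% of the GABARAP exon bases. MAP1LC3B, the usual LC3 marker of autophagosomes, gave 46.2, 47.4 and 43.7 and 53.2, 52.8 and 53.2 in HepG2, against 52.0, 51.5 and 52.0 and 51.6, 50.8 and 53.7 in LM3. It was slightly higher in HepG2, 0.21 (SE 0.055, adjusted p = 0.00467), and overlapped in LM3, 0.01 (SE 0.048, adjusted p = 0.927). Under quantile normalization the HepG2 call was lost (0.09, adjusted p = 0.146), and under median-of-ratios scaling LM3 gained one (0.12, adjusted p = 0.0456). The related MAP1LC3B2 shares 10% of the 50-base words of the MAP1LC3B transcript, and reads of those stretches cannot be told apart.

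GABARAPL1, a close relative of GABARAP, read 65.8, 54.3 and 68.9 with siNC and 88.4, 78.6 and 78.4 with siFASRL in HepG2. Its LM3 values were 106, 79.7 and 77.7 and 93.3, 98.04 and 96.5. The HepG2 groups were apart, with siFASRL above, whereas in LM3 the first siNC library exceeded all others. The fold change was 0.38 (SE 0.092, adjusted p = 0.00333) in HepG2, lost under quantile normalization (0.22, adjusted p = 0.0559), and 0.14 (SE 0.108, adjusted p = 0.255) in LM3, where leaving out siNC replicate 1 gave 0.28 with an adjusted p of 0.000359. GABARAPL2 (GATE-16) gave 47.5, 47.5 and 46.4 and 47.3, 50.6 and 52.6 in HepG2 and 47.9, 44.5 and 44.0 and 40.6, 43.2 and 45.5 in LM3. Its groups overlapped in both lines, with 0.09 (SE 0.058, adjusted p = 0.178) and −0.08 (SE 0.061, adjusted p = 0.281). Centring on the gap gave it a HepG2 call (0.23) and quantile normalization an LM3 call (−0.16).

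The initiating ULK complex held the 2 widest opposite changes of the machinery. ULK1 (chr12:131894622-131923150), the kinase that AMPK and mTORC1 control, read 26.1, 29.9 and 25.6 with siNC and 13.04, 14.1 and 14.0 with siFASRL in HepG2. In LM3 it read 44.9, 49.4 and 46.2 and 18.5, 18.9 and 17.1. Knockdown left 50.4% of the control mean in HepG2 and 38.8% in LM3, and no libraries overlapped. The log2 fold changes were −0.94 (SE 0.071, adjusted p = 1.78e-06) and −1.32 (SE 0.060, adjusted p = 5.75e-07), and the LM3 effect minus the HepG2 effect was −0.38 (SE 0.094, adjusted p = 0.00465). ATG101, which stabilizes ATG13 in the same complex, gave 26.8, 25.1 and 22.9 and 43.9, 44.7 and 45.8 in HepG2 and 26.6, 28.8 and 30.0 and 44.0, 44.5 and 43.9 in LM3. It rose to nearly the same level in both lines, by 0.82 (SE 0.066, adjusted p = 2.55e-06) and 0.62 (SE 0.056, adjusted p = 1.7e-05). An antisense transcript covers 19.2% of the bases annotated as ATG101 exons. The scaffold RB1CC1 (FIP200) and ATG13 had no call in either line, and centring on the gap gave each a call of higher in HepG2 (0.16 and 0.17).

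In the class III phosphatidylinositol 3-kinase complex, PIK3R4, the regulatory subunit p150, was lower in both lines (−0.59 in HepG2 and −0.53 in LM3). ATG14, which directs the kinase to autophagosomes, was called higher in LM3 (0.19). It lost that call without siFASRL replicate 1 (0.20, adjusted p = 0.0565), without siFASRL replicate 3 (0.15, adjusted p = 0.106) and without siNC replicate 3 (0.17, adjusted p = 0.0779). In HepG2 it had no call (0.09) but gained one under quantile normalization (0.25) and with the gap centred (0.22). UVRAG, a Beclin 1 partner, had no call in either line, and gained one of higher in HepG2 under the same alternatives (0.25 in each) and in LM3 under quantile normalization (0.16). Of the lipid transfer proteins ATG2A and ATG2B, ATG2B was lower in both lines (−0.38 and −0.52), and ATG2A was lower in LM3 (−0.56) with no call in HepG2 (0.05), where quantile normalization (0.20) and centring on the gap (0.18) each gave it a call of higher.

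WIPI2, which binds phosphatidylinositol 3-phosphate and recruits ATG16L1, read 11.3, 11.9 and 11.1 with siNC and 14.4, 14.3 and 14.7 with siFASRL in HepG2. Its LM3 values were 14.8, 15.9 and 15.6 and 12.8, 13.5 and 13.3. Knockdown libraries thus lay above the controls in HepG2 and below them in LM3, without overlap in either. The fold changes were 0.31 (SE 0.054, adjusted p = 0.000385) and −0.21 (SE 0.052, adjusted p = 0.00593), and their difference −0.52 (SE 0.067, adjusted p = 3.73e-05). The LM3 call was lost under quantile normalization (−0.09, adjusted p = 0.139) and median-of-ratios scaling (−0.10, adjusted p = 0.118). VMP1, an endoplasmic reticulum protein that moves lipid to the growing membrane, was called higher in HepG2 (0.18) but not without siFASRL replicate 3 (0.17, adjusted p = 0.0668) or siNC replicate 2 (0.12, adjusted p = 0.0591), nor under quantile normalization (0.02, adjusted p = 0.744). In LM3 it had no call (−0.18), and gained one without siNC replicate 3 (−0.25, adjusted p = 0.0329) and under quantile normalization (−0.27, adjusted p = 0.0251).

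The conjugation system held 7 listed members, of which 2 were lower and 4 higher in HepG2 and 1 lower and 4 higher in LM3 (of all listed genes 44.3% were lower and 44.8% higher in HepG2, and 43.5% and 33.9% in LM3). ATG16L1, the scaffold that places LC3 lipidation on the membrane, gave 13.6, 12.8 and 13.3 with siNC and 15.6, 15.1 and 14.9 with siFASRL in HepG2. In LM3 it gave 14.0, 12.2 and 12.5 and 9.25, 9.51 and 10.6. Like its recruiter WIPI2 it was higher in HepG2 and lower in LM3, by 0.19 (SE 0.054, adjusted p = 0.0087) and −0.36 (SE 0.071, adjusted p = 0.00147), with a difference of −0.55 (SE 0.087, adjusted p = 0.0002). The E1-like enzyme ATG7 (0.31 and 0.29), the E2-like enzyme ATG3 (0.30 and 0.33) and the protease ATG4C (0.33 and 0.44) were higher in both lines, with VGLL4 on the opposite strand over 18.1% of the ATG7 exon bases. ATG5 was lower in HepG2 (−0.40), with −0.14 and no call in LM3, where leaving out siNC replicate 2 gave −0.18 and a call of lower (adjusted p = 0.0329), as did a fit of all 12 libraries (−0.14, adjusted p = 0.0293). The E2-like ATG10 was lower in HepG2 (−0.32) but not under quantile normalization (−0.03, adjusted p = 0.688), which called it higher in LM3 (0.29). ATG12, the ubiquitin-like partner of ATG5, was called higher in LM3 (0.16). It lost that call without siFASRL replicate 2 (0.16, adjusted p = 0.0609), siFASRL replicate 3 (0.13, adjusted p = 0.0885), siNC replicate 2 (0.14, adjusted p = 0.0804) or siNC replicate 3 (0.16, adjusted p = 0.0627), and once replicate number entered the fit (0.16, adjusted p = 0.0508). In HepG2 (0.13) it gained one without siFASRL replicate 1 (0.18, adjusted p = 0.021), under quantile normalization (0.22), with the gap centred (0.26) and in a fit of all 12 libraries (0.13, adjusted p = 0.0385).

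Of the 3 transcription factors 2 were listed. MITF (chr3:69739464-69968332), known from melanocytes and osteoclasts and able to bind lysosomal gene promoters, read 7.03, 6.55 and 7.66 with siNC and 17.2, 17.9 and 17.3 with siFASRL in HepG2. The LM3 values were 15.9, 14.1 and 14.5 and 34.8, 32.3 and 33.8. Every siFASRL library exceeded every control of its line, and LM3 lay above HepG2 with either siRNA. The rise was 2.47-fold and 2.26-fold, with log2 fold changes of 1.19 (SE 0.064, adjusted p = 2.24e-07) and 1.13 (SE 0.061, adjusted p = 1.29e-06). TFE3, a relative of TFEB, gave 29.7, 31.2 and 32.1 and 46.0, 41.8 and 43.4 in HepG2, and 63.3, 65.7 and 64.8 and 63.4, 64.4 and 63.5 in LM3. Its siFASRL libraries lay above the controls in HepG2 and among them in LM3. The fold change was 0.48 (SE 0.060, adjusted p = 4.55e-05) in HepG2 and −0.02 (SE 0.047, adjusted p = 0.725) in LM3, with a difference of −0.50 (SE 0.069, adjusted p = 6.94e-05). These are messenger levels, and neither the location nor the activity of the factors was measured.

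Most lysosomal proteins were lower. NEU1, a sialidase, read 89.6, 93.6 and 83.3 with siNC and 37.6, 37.8 and 39.6 with siFASRL in HepG2, and 10.7, 12.3 and 12.4 and 7.09, 6.71 and 7.27 in LM3. CTSA, the protective protein that NEU1 needs for its stability, gave 106, 102 and 106 and 67.3, 59.1 and 60.5 in HepG2, and 87.5, 89.8 and 86.9 and 49.9, 52.4 and 51.8 in LM3. Both partners lay lower after knockdown in all libraries of both lines. NEU1 changed by −1.19 (SE 0.061, adjusted p = 1.93e-07) in HepG2 and by −0.67 (SE 0.066, adjusted p = 2.58e-05) in LM3, and the LM3 effect minus the HepG2 effect was 0.52 (SE 0.089, adjusted p = 0.000375). For CTSA the changes were −0.74 (SE 0.063, adjusted p = 3.81e-06) and −0.77 (SE 0.048, adjusted p = 2.58e-06). Exons of NEURL2 on the opposite strand cover 17.7% of the bases annotated as CTSA exons, and NEURL2 was not listed.

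CTSD, the main aspartic protease of the lysosome, read 211, 216 and 211 with siNC and 158, 142 and 139 with siFASRL in HepG2, and 87.9, 92.7 and 93.5 and 54.8, 53.9 and 56.0 in LM3. TPP1, a peptidase lost in a childhood neuronal storage disease, gave 51.7, 44.8 and 50.97 and 36.2, 30.4 and 30.5 in HepG2, and 44.0, 37.2 and 37.7 and 24.7, 25.6 and 24.9 in LM3. ASAH1, the acid ceramidase, gave 46.4, 42.5 and 45.7 and 24.4, 25.8 and 24.6 in HepG2, and 40.6, 38.5 and 35.4 and 23.4, 24.7 and 24.1 in LM3. No siFASRL library reached the controls of its line for any of these. The changes were −0.54 (SE 0.063, adjusted p = 3.2e-05) and −0.72 (SE 0.050, adjusted p = 3.99e-06) for CTSD, −0.59 (SE 0.084, adjusted p = 0.000112) and −0.64 (SE 0.070, adjusted p = 5.17e-05) for TPP1, and −0.82 (SE 0.058, adjusted p = 1.18e-06) and −0.64 (SE 0.062, adjusted p = 2.32e-05) for ASAH1. CTSD shares 60.6% of the 50-base words of its transcript with an annotated coding gene on the same strand, and reads of those stretches cannot be told apart.

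Among the membrane proteins, CLN3, a lysosomal protein mutated in juvenile storage disease, read 29.3, 27.8 and 33.05 with siNC and 21.3, 17.7 and 17.7 with siFASRL in HepG2, and 13.1, 12.2 and 12.1 and 6.56, 6.12 and 7.35 in LM3. It was lower in all knockdown libraries, by −0.65 (SE 0.089, adjusted p = 8.52e-05) and −0.81 (SE 0.069, adjusted p = 1.1e-05), and another annotated coding gene on the same strand covers 25.2% of its exon bases. The calcium channel MCOLN1 (−0.59 and −0.40) and the structural protein LAMP2 (−0.53 and −0.19) were also lower in both lines, LAMP2 losing its LM3 call under median-of-ratios scaling (−0.07, adjusted p = 0.171). LAMP1, the most commonly used lysosomal marker, read 141, 145 and 141 with siNC and 144, 139 and 142 with siFASRL in HepG2, and 95.1, 103 and 101.3 and 102, 102 and 103 in LM3. Its groups overlapped in both lines, at −0.01 (SE 0.052, adjusted p = 0.859) and 0.04 (SE 0.051, adjusted p = 0.524), and it was singled out after its values were seen. Centring on the gap and median-of-ratios scaling each gave LAMP1 a call of higher, the former in HepG2 (0.13) and the latter in LM3 (0.16).

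Of the remaining lumenal proteins, the hexosaminidase subunit HEXA, the saposin precursor PSAP and progranulin (GRN) were lower in both lines, with fold changes from −0.56 to −0.34. The exception was CTSB, an abundant cysteine protease. Its value was 76.6, 89.0 and 74.9 with siNC and 100, 105 and 99.5 with siFASRL in HepG2, and 28.6, 30.8 and 31.7 and 24.8, 26.4 and 25.3 in LM3. It lay higher after knockdown in HepG2 and lower in LM3, by 0.34 (SE 0.073, adjusted p = 0.00148) and −0.24 (SE 0.057, adjusted p = 0.00426), with a difference of −0.58 (SE 0.093, adjusted p = 0.000225). The LM3 call was lost under median-of-ratios scaling (−0.13, adjusted p = 0.0652). In all, 11 of the 13 lysosomal proteins (84.6%) were called lower in both lines, against 2646 of 7349 listed genes tested in both (36%). Of the 25 autophagy genes, 4 (16%) were lower in both and 6 (24%) higher in both, against 29.6% of all listed genes higher in both.

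Promoter windows of the members were searched for the E-box CACGTG and for TCACGTGA, the same letters with the flanks found in the sites that MiT/TFE factors bind. Each motif reads the same on both strands, and the longer contains the shorter. The RefSeq windows (GRCh38.p14) reach from 250 bases before to 50 bases after each annotated start, and 34 of the 41 listed members have at least 1 (all but RB1CC1, UVRAG, LAMP2, CTSB, HEXA, ASAH1 and PSAP). CACGTG was in 7.26% of all 35116 windows and TCACGTGA in 0.98%. Counted by gene, with a match in any window of the gene, the shares were 8.77% and 1.18% of 27305 genes, and 12.2% and 2.05% of the 7111 listed genes with a window. Counted in the same way, of 8 lysosomal members with a window, 6 held CACGTG and 4 held TCACGTGA. Of the 26 other members with a window, 2 held CACGTG (ATG14 and ATG3) and 1 held TCACGTGA (ATG3). The windows of the 6 lysosomal genes that hold CACGTG follow, with each CACGTG in capitals, written 5′ to 3′ on the strand of the gene.
MCOLN1 (chr19:7522374-7522673, plus strand): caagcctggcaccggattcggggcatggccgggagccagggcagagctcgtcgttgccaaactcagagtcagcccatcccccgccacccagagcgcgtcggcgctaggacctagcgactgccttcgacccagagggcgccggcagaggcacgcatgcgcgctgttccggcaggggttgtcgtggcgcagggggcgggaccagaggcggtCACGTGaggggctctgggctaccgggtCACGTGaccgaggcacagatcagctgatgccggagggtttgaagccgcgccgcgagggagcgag
CLN3 (chr16:28492025-28492324, minus strand): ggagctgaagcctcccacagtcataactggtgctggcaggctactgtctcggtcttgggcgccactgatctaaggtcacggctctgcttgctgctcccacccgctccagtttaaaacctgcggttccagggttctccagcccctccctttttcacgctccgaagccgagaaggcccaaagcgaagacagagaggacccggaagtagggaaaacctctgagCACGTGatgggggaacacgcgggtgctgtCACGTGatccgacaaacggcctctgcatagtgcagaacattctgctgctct
CTSA (chr20:45891085-45891384, plus strand): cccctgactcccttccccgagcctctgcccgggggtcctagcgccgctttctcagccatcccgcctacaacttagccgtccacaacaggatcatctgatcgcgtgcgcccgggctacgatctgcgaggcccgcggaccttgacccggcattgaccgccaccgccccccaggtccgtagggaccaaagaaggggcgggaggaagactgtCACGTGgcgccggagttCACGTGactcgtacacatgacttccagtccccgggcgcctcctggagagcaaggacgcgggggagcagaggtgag
CTSD (chr11:1763878-1764177, minus strand): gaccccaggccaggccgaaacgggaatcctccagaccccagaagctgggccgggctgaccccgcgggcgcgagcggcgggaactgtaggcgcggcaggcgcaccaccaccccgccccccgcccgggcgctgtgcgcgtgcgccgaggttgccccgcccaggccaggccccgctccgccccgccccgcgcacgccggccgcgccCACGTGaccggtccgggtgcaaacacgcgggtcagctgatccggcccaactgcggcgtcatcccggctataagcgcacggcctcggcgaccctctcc
NEU1 (chr6:31862772-31863071, minus strand): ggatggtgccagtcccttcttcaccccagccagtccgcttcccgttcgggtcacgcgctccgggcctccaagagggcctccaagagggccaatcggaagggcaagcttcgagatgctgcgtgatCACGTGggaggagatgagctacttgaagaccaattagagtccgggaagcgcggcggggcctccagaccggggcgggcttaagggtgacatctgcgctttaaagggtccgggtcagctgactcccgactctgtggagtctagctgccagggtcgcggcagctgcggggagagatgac
LAMP1 (chr13:113296989-113297288, plus strand): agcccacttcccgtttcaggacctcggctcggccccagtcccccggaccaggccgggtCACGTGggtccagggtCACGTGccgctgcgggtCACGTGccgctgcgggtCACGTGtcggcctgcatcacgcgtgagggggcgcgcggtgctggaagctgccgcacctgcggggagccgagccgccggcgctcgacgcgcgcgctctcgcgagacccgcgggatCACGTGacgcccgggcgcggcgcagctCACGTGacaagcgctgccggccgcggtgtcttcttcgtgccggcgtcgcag

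The letters began 41 and 14 bases before the start in MCOLN1, 42 and 25 in CTSA, 47 in CTSD, 30 and 1 in the CLN3 window shown and 126 in NEU1. In LAMP1 they began 192, 176, 159, 142, 28 and 1 bases before it. The genes holding them did not all move alike. TPP1 (−0.59 and −0.64) and GRN (−0.56 and −0.47), lysosomal members whose windows lack CACGTG, were also lower in both lines. MCOLN1, CLN3, CTSA, CTSD and NEU1 were lower in both lines, LAMP1, whose window holds CACGTG 6 times, had no call in either, ATG3 was higher in both, and ATG14 had no call in HepG2 (0.09) and was called higher in LM3 (0.19). In the 3 lysosomal lists described next, 13 of 54 genes with a window held CACGTG (24.1%) and 8 held TCACGTGA (14.8%). The 4 other lists held CACGTG in 16.7% to 20% of their genes and TCACGTGA in 0 of 10 other receptors, 1 of 22 mTORC1 genes, 1 of 11 other autophagy factors and 1 of 6 fusion genes. Of the 8 lysosomal genes with TCACGTGA, 6 were lower and 2 higher in HepG2, and 6 were lower and 1 higher in LM3. Over all tested genes of those lists, with or without a window, 81.8% to 90.3% of a list were lower in HepG2 and 80% to 82.8% in LM3. Of all listed genes 44.3% and 43.5% were lower. No test compared the genes with these letters with their lists. A match of letters is a description of the window and not a bound site, and the letters do not tell which factor would bind them.

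The pattern of the members was looked for in the other genes of the pathway, in 7 further lists with 127 of 191 genes listed. Of the other lysosomal enzymes, 28 of 31 were lower and 1 higher in HepG2 (90.3% and 3.23%, against 44.3% and 44.8% of all listed genes). In LM3, 24 of 29 were lower and 1 higher (82.8% and 3.45%, against 43.5% and 33.9% of all). The gene higher in both lines was PPT1, a palmitoyl-protein thioesterase (0.49 and 0.87), named after its values were seen. Under quantile normalization the LM3 split was 19 lower and 3 higher, where 34.7% and 37.5% of all genes were. SMPD1, the acid sphingomyelinase, fell furthest, from 20.5, 23.1 and 19.3 to 5.49, 5.15 and 6.94 in HepG2 and from 16.3, 21.5 and 20.5 to 6.59, 6.88 and 6.38 in LM3. No libraries overlapped, and the log2 fold changes were −1.68 (SE 0.101, adjusted p = 4.38e-07) and −1.42 (SE 0.095, adjusted p = 3.38e-06). MAN2B2, a lysosomal mannosidase (−1.07 and −1.10), and GM2A, the activator protein for ganglioside breakdown (−0.79 and −1.15), followed the same direction.

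In the list of V-ATPase subunits, parts of the proton pump that acidifies the lysosome, 10 of 12 were lower and 2 higher in HepG2, and 8 of 10 lower and 0 higher in LM3. Of all listed genes 44.3% were lower and 44.8% higher in HepG2, and 43.5% and 33.9% in LM3. The catalytic subunit ATP6V1A was at −0.94 and −0.82, ATP6V0E2 at −1.18 and −0.84, and ATP6V1G2, under the filter on low values in LM3 and not tested there, at −1.23 in HepG2. ATP6V1G2 was low in HepG2 too, with means of 2.97 with siNC and 0.69 with siFASRL (23.2%). The 1 added to each value shrinks its fold change, which is not comparable in size with those of the other 2. TCIRG1, a further subunit of the pump (−1.02 and −0.42, lower in both lines), was placed among the enzymes when the lists were drawn up and is counted there and not here. Among other lysosomal membrane and trafficking genes, 18 of 22 were lower and 3 higher in each line. In LM3, 14 were lower and 3 higher under quantile or median-of-ratios scaling, where 34.7% and 36.9% of all genes were lower. The lower genes of this list include GNPTAB, which makes the mannose 6-phosphate tag that routes hydrolases to the lysosome (−0.99 and −1.17). They also include the cholesterol carrier NPC2 (−0.98 and −0.79) and the peptide transporter ABCB9 (−0.74 and −0.97). IGF2R, a receptor for that tag, was higher in both lines (0.44 and 0.35), as was TMEM192 (0.19 and 0.31). NPC1 was higher in HepG2 (0.71) with no call in LM3 (−0.06), and CD68 was higher in LM3 (0.23) with no call in HepG2 (0.11). These higher genes were named after their values were seen. Called lower in both lines were 24 of 29 other enzymes (82.8%), 8 of 10 V-ATPase subunits (80%) and 18 of 22 membrane and trafficking genes (81.8%). Of all listed genes tested in both lines, 2646 of 7349 (36%) were.

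**Figure D4:**
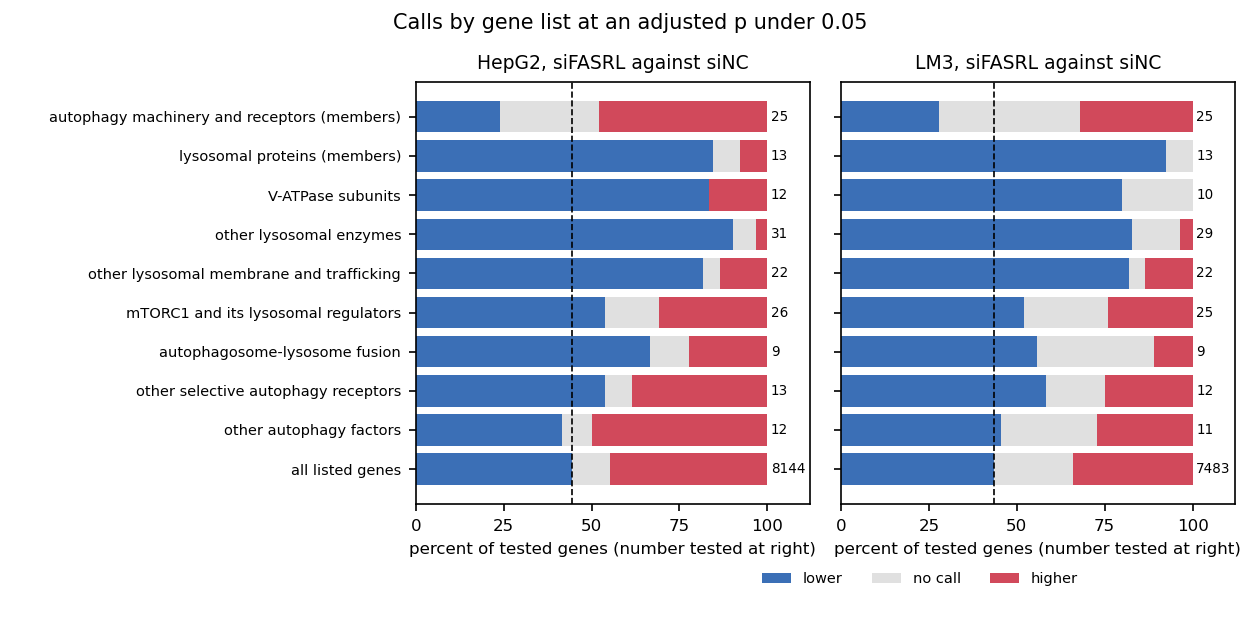
Percent of tested genes called lower (blue), higher (red) or without a call (grey) at an adjusted p under 0.05 with siFASRL in HepG2 and LM3, for the autophagy and lysosomal members, 7 further lists and all listed genes, with the number tested at the right of each bar. The dashed line marks the share of all listed genes called lower (44.3% and 43.5%), which the 4 lysosomal lists, the mTORC1, fusion and other receptor lists exceed in both lines, other autophagy factors exceed in LM3 only and the autophagy machinery does not reach.

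Of all listed genes 44.3% were called lower in HepG2 and 43.5% in LM3. With the values as deposited, the shares called lower in the mTORC1, fusion and other receptor lists lay between those of all listed genes and those of the lysosomal lists. In LM3 that placement depended on the scaling. Of genes for mTORC1 and its lysosomal regulators, 14 of 26 were lower and 8 higher in HepG2, and 13 of 25 lower and 6 higher in LM3. In LM3 the list had 8 lower and 10 higher under quantile normalization, where all genes had 2598 and 2808 (8 of 25 lower, below the 34.7% of all genes), and 10 and 9 under median-of-ratios scaling, where all genes had 2755 and 3139 (10 of 25 lower, above the 36.9% of all genes). SESN1, a p53-induced sestrin, fell in both lines (−1.33 and −0.98), as did CASTOR2, a homolog of an arginine sensor (−0.813 and −0.996). SESN2, the leucine-binding sestrin, read 7.61, 8.20 and 7.11 with siNC and 9.08, 8.91 and 9.43 with siFASRL in HepG2, but 5.51, 6.55 and 6.15 and 1.95, 2.2 and 1.94 in LM3. It was thus a little higher in HepG2 (0.23) and far lower in LM3 (−1.22), a difference of −1.45 with an adjusted p of 8.01e-08. In the fusion list, 6 of 9 were lower and 2 higher in HepG2, and 5 of 9 lower and 1 higher in LM3. GRAMD1A, a sterol transfer protein, was placed in this list when it was drawn up and is counted in it. The late endosomal GTPase RAB7A was at −0.71 and −0.66 and the tether EPG5 at −0.60 and −0.47. EPG5 had no call in LM3 under quantile normalization (−0.10, adjusted p = 0.107). The LM3 count of lower genes in this list was 3 of 9 under quantile and under median-of-ratios scaling, below the 34.7% and 36.9% of all genes.

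Further selective autophagy receptors split 7 lower to 5 higher of 13 in HepG2 (53.8% and 38.5%, against 44.3% and 44.8% of all listed genes). In LM3 they split 7 to 3 of 12 (58.3% and 25%, against 43.5% and 33.9% of all). There they split 5 to 2 under quantile normalization, where 34.7% and 37.5% of all genes were lower and higher. Under median-of-ratios scaling they split 5 to 4, against 36.9% and 42% of all genes. The mitophagy genes BNIP3 (−1.23 and −0.84) and PINK1 (−0.89 and −0.89) were among the lower. Other autophagy factors were lower in 5 of 12 (41.7%) and higher in 6 (50%) in HepG2, against 44.3% and 44.8% of all listed genes. In LM3 they were lower in 5 of 11 (45.5%) and higher in 3 (27.3%), against 43.5% and 33.9% of all. Under quantile and under median-of-ratios scaling 4 of 11 were lower there, against 34.7% and 36.9% of all genes. In HepG2, 5 of 12 were lower under quantile normalization, against 40.6% of all. The shares called lower thus lay near those of all genes. ZFYVE1, which marks the omegasome, was lower (−0.80 and −1.02). DAPK1, a death-associated kinase, was higher in both lines (0.62 and 0.82), and so was DRAM1, a p53-induced lysosomal membrane protein, at 0.83 in HepG2 and 0.19 in LM3, with a difference of −0.65 and an adjusted p of 6.06e-06.

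The size of the effect was compared between the lines gene by gene. The interaction was called in 15 of 41 members, below the 46.7% of all 8285 genes tested, with 11 members lower and 4 higher in LM3 relative to HepG2. Over all genes 2256 were lower and 1612 higher. The split moved with scaling, as that of all genes did. It was 9 to 6 under quantile normalization (all genes 2056 to 2003), 9 to 6 under median-of-ratios scaling (1783 to 1986) and 19 to 2 with HepG2 centred on the gap (3492 to 1072), which moved the median of all genes by −0.13. Within the autophagy genes 10 of 25 were called and within the lysosomal proteins 3 of 13 (CTSB, NEU1 and LAMP2). The widest member difference was ATG2A (−0.61, adjusted p = 0.000327). Some calls depended on a single library or on the scaling. ATG101 (−0.21, adjusted p = 0.063) was called without HepG2 siNC replicate 1 (−0.26) without LM3 siNC replicate 1 (−0.25) and with the gap centred (−0.35). CTSD (−0.19, adjusted p = 0.0595) was called without HepG2 siFASRL replicate 3 (−0.23, adjusted p = 0.0382), without LM3 siNC replicate 1 (−0.22) and with the gap centred (−0.33). ASAH1 was called without LM3 siNC replicate 1 (0.22) and MCOLN1 without LM3 siNC replicate 3 (0.26), and both were called under quantile normalization (0.27 and 0.34) and median-of-ratios scaling (0.25 in each). VMP1 lost its call under both of these scalings (−0.28 and −0.29) and MAP1LC3B under the latter (−0.14). ATG10 (0.24, adjusted p = 0.0403) lost its call without any of 8 libraries in turn, with replicate number in the fit (adjusted p = 0.0689) and with the gap centred (0.14).

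The control libraries alone showed how the lines differ at baseline. Of 41 members, 17 were lower in LM3 than in HepG2 (40.6% of all 8176 genes tested were) and 18 were higher (40.4% of all). The lysosomal proteins were lower in LM3 in 12 of 13, with a median log2 difference of −0.51, and the autophagy genes were higher in 15 of 25, with a median of 0.19, against 0.00 over all genes. Quantile normalization, which raised the median of all genes by 0.14, gave 12 of 13 lower and 16 of 25 higher. Of all genes, 34.9% were then lower and 47.7% higher in LM3. NEU1 was 7.53 times as high in HepG2, CTSB 2.64 times, TP53INP2 2.53 times, CLN3 2.41 times and CTSD 2.32 times. MITF and TFE3 were 2.10 and 2.08 times as high in LM3, and ULK1 1.72 times. PSAP, the single lysosomal gene higher in LM3 (0.16, adjusted p = 0.0332), lost its call without HepG2 siNC replicate 1 (0.17, adjusted p = 0.0742) or 3 (0.13, adjusted p = 0.109), or LM3 siNC replicate 2 (0.14, adjusted p = 0.111) or 3 (0.15, adjusted p = 0.105). ASAH1 (−0.23) lost its call without HepG2 siNC replicate 1 (−0.20, adjusted p = 0.0564) or LM3 siNC replicate 3 (−0.18, adjusted p = 0.0565). Calls of autophagy genes moved as well. ATG7 (0.20) lost its call without HepG2 siNC replicate 2 or 3 or LM3 siNC replicate 2 or 3 (0.14 to 0.20), and ATG101 (0.19) without the same 4 (0.13 to 0.19). ATG101 also lost it with a pseudocount of 0.1 (0.19, adjusted p = 0.0583), under median-of-ratios scaling (0.18, adjusted p = 0.0503) and with replicate number in the fit (0.19, adjusted p = 0.0602). ATG12 lost its call without HepG2 siNC replicate 1 (0.16), MAP1LC3B without HepG2 siNC replicate 3 (0.15) and UVRAG without LM3 siNC replicate 2 (0.15), while RB1CC1 gained one without LM3 siNC replicate 3 (0.21) and with replicate number in the fit (0.16, adjusted p = 0.0427). ATG10 gained one under quantile normalization (0.38). Line and anything else that differed between these cultures cannot be told apart.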

How the data were processed

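RNA of HepG2 and LM3 cells was sequenced by the authors after oligo(dT) selection. The deposited values are the authors' normalized expression values from RSEM, with a unit other than counts, and FPKM or TPM was not stated. The authors aligned reads with HISAT2 and Bowtie2. The labels name hg19, and coordinates here come from the RefSeq gene table (GRCh38.p14), which held 8790 of 8842 listed IDs. Members and lists were chosen with earlier results of these data known. Values were used as log2(value + 1), and genes that reached 1 in 3 or more libraries of a fit were tested with limma 3.58.1 (R 4.3.3) and Benjamini-Hochberg adjustment over all tested genes. A call is an adjusted p under 0.05. The interaction of line and siRNA used all 12 libraries. Given with library values were TP53INP2, the cargo receptors, the ATG8 family, the 10 largest called member changes in each line and the 5 members with the lowest interaction adjusted p. The 2 largest called changes of each wider list and line were planned for the same treatment. Library values are given for SMPD1 and SESN2, HepG2 group means for ATP6V1G2, and fold changes only for the others. LAMP1 has library values outside this rule. Alternatives changed the pseudocount, filter, scaling, replicate block, libraries fitted together and each replicate. Among the HepG2 data, 6 further columns repeated the LM3 values and were not used, and 17 symbols turned into dates were restored.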

Additional observations from a re-analysis of the deposited data

Results flagged for a closer look

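For 10 named members the effect of siFASRL differed between the lines by the interaction test in limma over all 12 libraries. The LM3 effect minus the HepG2 effect, on the log2 scale, was −0.55 for TP53INP2 (adjusted p = 0.0117), which fell in both lines. It was −0.38 for ULK1 (adjusted p = 0.00465), which also fell in both. NEU1 fell in both lines as well, with a difference of 0.52 (adjusted p = 0.000375). SQSTM1 rose in both lines, with a difference of −0.48 (adjusted p = 0.00014). CALCOCO2 (−0.50, adjusted p = 0.000752), MAP1LC3B (−0.21, adjusted p = 0.0179) and TFE3 (−0.50, adjusted p = 6.94e-05) were called higher in HepG2 and had no call in LM3. WIPI2 (−0.52, adjusted p = 3.73e-05), ATG16L1 (−0.55, adjusted p = 0.0002) and CTSB (−0.58, adjusted p = 0.000225) were called higher in HepG2 and lower in LM3. The call of a difference was lost for TP53INP2 under quantile normalization and for MAP1LC3B under median-of-ratios scaling (−0.14, adjusted p = 0.106). Some calls within a line were lost as well. The LM3 call was lost for WIPI2 under quantile (−0.09) and median-of-ratios scaling (−0.10), and for CTSB under the latter (−0.13). MAP1LC3B lost its HepG2 call under quantile normalization (0.09) and gained an LM3 call under median-of-ratios scaling (0.12).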

How the results depend on the processing

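Of the counts called lower or higher in the siFASRL and siNC comparisons, the number of interaction calls and the TP53INP2 values, under alternatives other than leaving out a library, 155 kept their direction and their side of the threshold or stayed within 1.5 times the count, and 6 did not. With the HepG2 effects centred on the gap, an alternative chosen after seeing the data, members called higher were 23, autophagy genes 19 and lysosomal proteins 2. Of all genes 55.2% were then called higher. Under median-of-ratios scaling 2 members were higher past the fold threshold in LM3 and 1 lysosomal protein was called higher. Under quantile normalization the TP53INP2 interaction was −0.17. The cause was not tested. Leaving out each library in turn kept all 144 such values. The direction of the interaction calls is not in this tally. It moved from 11 lower and 4 higher to 19 and 2 with the gap centred, with autophagy genes lower going from 8 to 14, and lysosomal proteins higher went from 2 to 4 under quantile normalization and median-of-ratios scaling.

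For the named members other than TP53INP2, in the siFASRL comparisons and the interaction, 423 values kept their call or lack of one, 10 gained a call and 7 lost one, and without 1 library 474 kept it and 6 gained one. The comparison of siNC libraries and the members outside that rule are not in this tally, and calls of both were lost without 1 library. With the replicate number as a block, LM3 had 8 members higher (ATG12 lost), the interaction 14 calls (ATG10 lost) and, between siNC libraries, ATG101 lost a call and RB1CC1 gained one. Residuals of siFASRL and siNC libraries with the same replicate number correlated at r from −0.244 to 0.416 across genes, which are not independent replicates, and the block was kept as an alternative only. Depth is unknown, and 3 libraries a group limit the precision.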
